A study of Mus musculus with 2 samples.

Results

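The nuclear factor I (NFI) family of the mouse consists of 4 genes, Nfia, Nfib, Nfic and Nfix, and their levels are described here across the cell groups of tissue labelled olfactory epithelium. The genes were chosen by symbol, and each symbol matched 1 row among the 56953 genes of the count tables. Single-cell libraries of 2 male wildtype C57BL/6J mice were used, 1 library per mouse, and both belong to 1 group without a treatment or a genetic change. The tissue was cut up, digested with enzymes, sieved and treated to lyse red blood cells before it was loaded into droplets. The labels used here state no age for the mice. The question was therefore not what a condition does, but in which cells of these libraries each gene was high or low.

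NFI proteins are transcription factors that share a conserved DNA-binding domain near the amino terminus, bind DNA as homodimers or heterodimers and differ most in the carboxy-terminal part that acts on transcription. Nfia and Nfib are known for the onset of glial genes in the developing nervous system, Nfib also for lung maturation, Nfic for tooth root formation and Nfix for the switch from embryonic to fetal muscle genes. In the nose, NFI factors have been studied mainly in olfactory neurons, where they bear on which odorant receptors are used in which zone.

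The family recognises the motif TTGGC, which reads GCCAA on the other strand, and a full site is the palindrome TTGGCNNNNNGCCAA. The promoters of the genes are shown to let a reader see where that motif stands in the family's own genes. In RefSeq (build GRCm38.p6), promoter windows of 300 bases, from 250 bases before to 50 after a start site, were listed for 3 of the 4 genes: 1 for Nfia, 1 for Nfic and 4 for Nfix. Nfib was not matched. Capitals mark either reading of the 5-base motif.
Nfia (chr4:97581693-97581992, plus strand): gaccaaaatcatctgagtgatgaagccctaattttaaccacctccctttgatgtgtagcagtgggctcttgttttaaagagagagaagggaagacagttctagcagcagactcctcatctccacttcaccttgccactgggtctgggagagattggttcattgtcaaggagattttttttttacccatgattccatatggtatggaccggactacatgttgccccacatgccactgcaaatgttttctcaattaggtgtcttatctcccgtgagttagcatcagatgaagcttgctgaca
Nfic (chr10:81427124-81427423, minus strand): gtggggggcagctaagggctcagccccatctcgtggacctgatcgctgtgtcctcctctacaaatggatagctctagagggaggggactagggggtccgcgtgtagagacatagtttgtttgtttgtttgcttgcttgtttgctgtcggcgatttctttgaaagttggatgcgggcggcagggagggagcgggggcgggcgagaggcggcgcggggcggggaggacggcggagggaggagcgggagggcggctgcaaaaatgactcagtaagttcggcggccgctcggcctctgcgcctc
Nfix, the fourth listed start (chr8:84772826-84773125, minus strand): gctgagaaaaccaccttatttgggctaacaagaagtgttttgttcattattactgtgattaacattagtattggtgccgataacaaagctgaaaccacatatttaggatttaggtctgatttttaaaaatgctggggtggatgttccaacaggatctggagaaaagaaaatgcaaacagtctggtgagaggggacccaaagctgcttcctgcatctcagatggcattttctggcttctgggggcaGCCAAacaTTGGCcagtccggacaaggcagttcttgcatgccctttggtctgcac
The windows of Nfia and Nfic held no copy of the motif. The Nfix window shown held 2 copies, which lie close together in the order opposite to that of the palindrome, and the other windows of Nfix held 0, 1 and 1. The motif stood in 46.7% of all 32851 promoter windows of this length, and the palindrome in 12 of them (0.0365%) and in none of the 6 windows of the family. These counts are a description of the letters and not of binding.

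Filtering kept 12538 cells in mouse 1 and 8931 in mouse 2, with 65952221 and 63068275 UMIs (unique molecular identifiers, 1 per captured RNA molecule), and 27 clusters were found. They were named from marker genes. Fibroblast-like cells (4880 and 3870 cells) and chondrocyte-like cells (5206 and 3158) made up most of both libraries. No cluster met the markers of olfactory neurons, sustentacular cells or other cells particular to an olfactory epithelium, so the family could not be described in them. The cluster named keratinocyte or basal epithelial-like is led by Psca, Ltf and Krt13. The libraries shared 515 cell barcodes of at least 1000 UMIs, and results without them are given in the closing section. Levels are in counts-per-million (CPM), the UMIs of a gene scaled to those of all genes in all cells of that group in 1 mouse. They are compared between groups for 1 gene and not between genes, since gene length and priming differ.

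Over all cells the levels of the mice lay close together. Nfia stood at 377 CPM in mouse 1 and 338 CPM in mouse 2, and Nfib at 355 and 330 CPM. Nfic stood at 227 and 221 CPM and Nfix at 563 and 569 CPM. Near-empty barcodes (50 UMIs or fewer), whose UMIs come from free RNA and not from a cell, gave 391 and 325 CPM for Nfia, 292 and 265 CPM for Nfib, 186 and 156 CPM for Nfic and 426 and 418 CPM for Nfix. The free RNA of these libraries thus held all 4 genes at a level near that of the average cell, and low levels in a group have to be read against it.

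**Figure D1:**
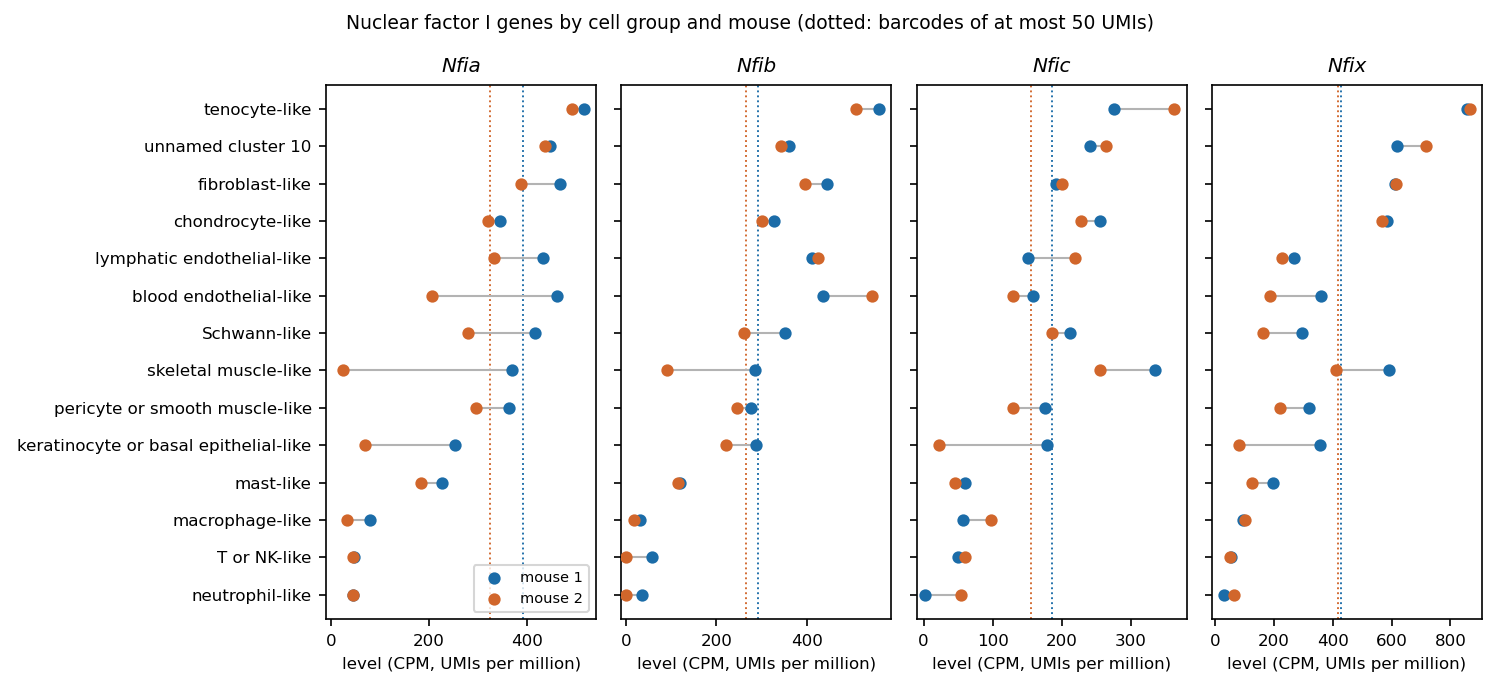
Level of each gene (x axis, CPM) in 14 cell groups with at least 20 cells in both mice (y axis), 1 point per mouse, joined by a grey line; dotted lines mark the level in near-empty barcodes of the mouse of that colour. Tenocyte-like cells stand at the top for each gene, and both points of the macrophage-like, T or NK-like and neutrophil-like cells lie left of the dotted lines in every panel.

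Tenocyte-like cells, the cells of tendon and ligament named here from Tnmd, Scx, Thbs4, Mkx and Fmod, ranked first of 14 groups for each gene by the mean of the mice. Their Nfix level was 857 CPM in mouse 1 and 865 CPM in mouse 2 (861 ± 5.87, SD, n = 2), against 612 and 613 CPM in fibroblast-like cells. Their Nfib level was 559 and 509 CPM, against 445 and 397 CPM in fibroblast-like cells. Nfia stood at 516 and 491 CPM there and at 467 and 387 CPM in fibroblast-like cells, and Nfic at 276 and 363 CPM against 192 and 200 CPM. Each gene was higher in the tenocyte-like cells of both mice than in the fibroblast-like cells of either mouse. The share of all genes with such a split was not counted, so the split is a description only. None of these differences passed the test, in which the fibroblast-like cells were the reference for each of 12 classes (edgeR's quasi-likelihood test on counts summed by class within each mouse, blocked by mouse, with Benjamini-Hochberg adjustment). The difference was 0.44 ± 0.44 on the log2 scale (SE, 95% interval -0.45 to 1.34) for Nfix and 0.66 ± 0.54 (-0.44 to 1.76) for Nfic, so a rise by a factor of over 2 is inside both intervals. Of the 6562 genes tested there, 3.34% passed. With only those 2 classes in the fit, which then carries its own estimate of the spread, Nfix (0.39, adjusted p = 0.00328) and Nfic (0.60, adjusted p = 0.00116) were called higher by edgeR in tenocyte-like cells. In that fit 15.4% of tested genes passed. Fits of only 2 classes, here and below, have far fewer residual degrees of freedom than the 12 of the fit of all classes. Over the 12 comparisons their counts of called genes ran from 0.32 to 6.42 times those of the fit of all classes.

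Chondrocyte-like cells, named from Col2a1, Acan, Col9a1, Hapln1 and Matn3, held the family at levels close to those of fibroblast-like cells. Nfix stood at 584 CPM in mouse 1 and 568 CPM in mouse 2, just below the 612 and 613 CPM of fibroblast-like cells. Nfia stood at 345 and 319 CPM and Nfib at 328 and 301 CPM, each below the fibroblast-like values of both mice, while Nfic stood at 255 and 228 CPM, above them. None of the 4 passed the test against fibroblast-like cells, where 23.1% of tested genes did. The difference of Nfix was -0.03 ± 0.44 (95% interval -0.92 to 0.87) and that of Nfic 0.36 ± 0.53 (-0.73 to 1.45). In the fit of only those 2 classes, where 52.2% of tested genes passed, Nfic was called higher (0.47, adjusted p = 0.0149, edgeR). The sign of the Nfix difference turned in 9 of the alternatives run, with values of up to 0.11. Cluster 10, which stayed without a name and was led by Igfbp2, Mfap4 and Coch, had 617 and 718 CPM of Nfix and 446 and 435 CPM of Nfia, next in order to the tenocyte-like cells for both genes.

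Nfix was the member called different from fibroblast-like cells in the most classes. It was called lower in 9 of 12 classes, against 4 for Nfib, 3 for Nfia and 3 for Nfic. No member was called higher in any class. Over all tested genes, the share called lower in these 9 classes ran from 4.94% (blood endothelial-like) to 15.4% (neutrophil-like). How many genes were called lower in as many classes was not counted. The 9 classes with lower Nfix were 4 immune classes and 5 others: blood endothelial-like, lymphatic endothelial-like, pericyte or smooth muscle-like, Schwann-like and keratinocyte or basal epithelial-like cells. Nfix also had the smallest SE of the 4 members in each comparison, from 0.44 to 0.52, so a difference of a given size passed more readily. In keratinocyte or basal epithelial-like cells Nfia at -1.40 ± 0.54 was not called, while Nfix at -1.47 ± 0.46 was. Whether Nfix differs from the other members in the number of classes was not tested.

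**Figure D2:**
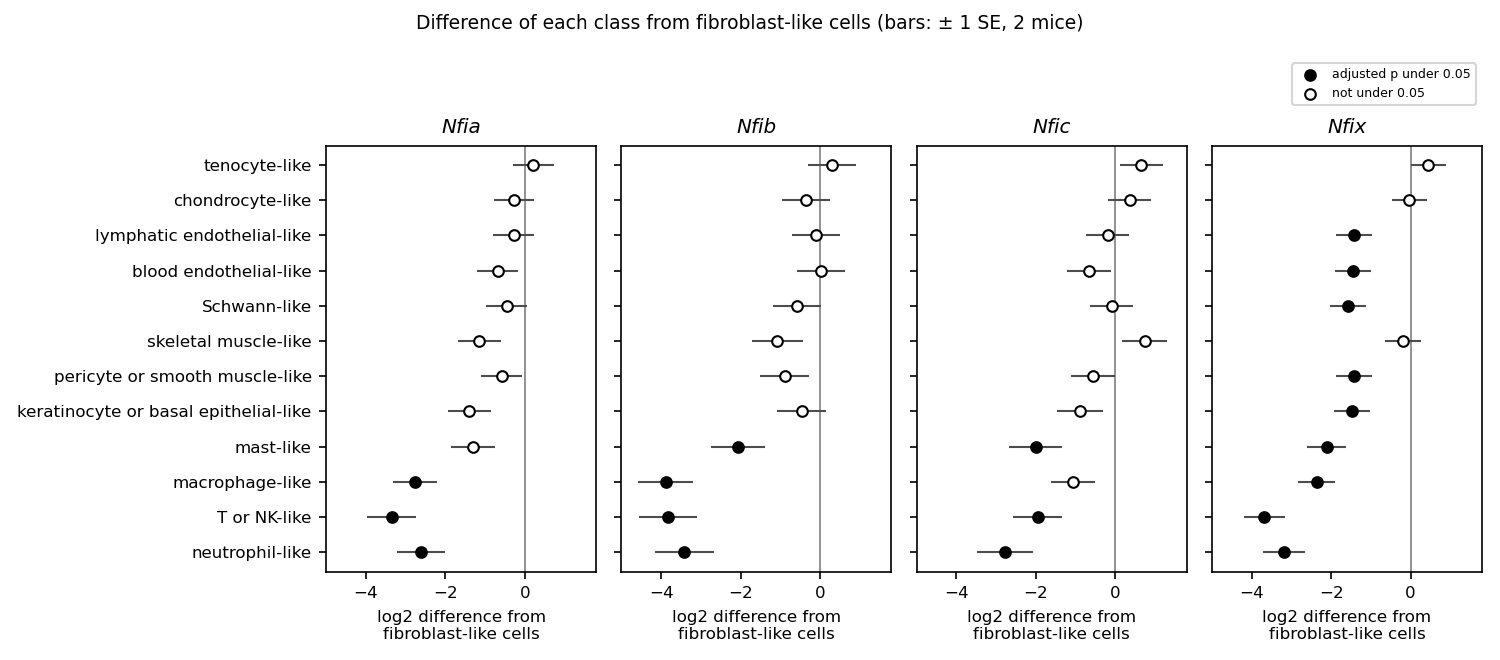
Difference of each class from fibroblast-like cells (x axis, log2 scale) for the 4 genes, with bars of 1 SE from the fit of all classes in 2 mice. Filled points had an adjusted p under 0.05 in edgeR. The points of Nfix lie near -1.5 in endothelial, pericyte, Schwann and keratin-bearing cells, where those of the other genes are open.

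In lymphatic endothelial-like cells, which line lymph vessels and express Prox1, Lyve1, Flt4, Mmrn1 and Ccl21a, Nfix stood at 267 CPM in mouse 1 and 229 CPM in mouse 2. Both values lie below those of fibroblast-like cells, and the difference was -1.43 ± 0.45 (adjusted p = 0.0268, edgeR), or 2.69 times lower. Nfib stood at 411 and 425 CPM in the same cells, within the range of fibroblast-like cells (-0.10 ± 0.60, 95% interval -1.33 to 1.13, adjusted p = 0.954). Nfia stood at 432 and 333 CPM and Nfic at 151 and 220 CPM, and neither passed. Of the tested genes, 16.5% passed there. The 5 fibroblast markers all had UMIs in these cells, and their summed level was 13.1% and 5.67% of that in near-empty barcodes, while Nfix was at 62.6% and 54.8% of its own. The part of free RNA in the Nfix level was not tested.

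Blood endothelial-like cells, named from Pecam1, Cdh5, Kdr, Flt1 and Emcn, had 358 CPM of Nfix in mouse 1 and 186 CPM in mouse 2 (-1.45 ± 0.45, adjusted p = 0.0305, edgeR). Nfib stood at 435 and 545 CPM, the second-highest group after tenocyte-like cells, and did not pass (0.03 ± 0.60, 95% interval -1.21 to 1.26). Nfia stood at 460 CPM in mouse 1 and 206 CPM in mouse 2, the first within and the second below the range of fibroblast-like cells. Of the tested genes, 13.1% passed. All 5 fibroblast markers and all 5 chondrocyte markers had UMIs in these cells. Their summed levels were 70.0% and 79.5% of the near-empty level in mouse 1 but 12.7% and 11.3% in mouse 2, the mouse with the lower Nfia and Nfix. Their part in the gap between the mice was not tested. In single mice the Nfix difference was -0.97 (mouse 1) and -1.95 (mouse 2), with the same scaling and 1 CPM added.

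Pericyte or smooth muscle-like cells, the contractile cells around vessels, had 319 and 220 CPM of Nfix (-1.43 ± 0.45, adjusted p = 0.0359, edgeR) where 11.9% of tested genes passed. Schwann-like cells, the glia of peripheral nerves, whose markers here include Sox10, Mbp and Cdh19, had 295 and 165 CPM of Nfix (-1.58 ± 0.46, adjusted p = 0.0174), where 13.2% of tested genes passed. Nfia and Nfib, the members known from glia, stood there at 416 and 279 CPM and at 353 and 262 CPM, and neither passed (adjusted p = 0.674 and 0.631, edgeR). Cluster 26, with 28 cells of mouse 1 and 0 of mouse 2, is part of the Schwann-like class. Its leading genes hold Mbp beside the fibroblast genes Ccl7 and Ptx3, and without it the Nfix difference was -1.96 (adjusted p = 0.00353, edgeR). Nfix gave 32.6% of the family's UMIs in cluster 26. In the rest of the class, cluster 17, it gave 17.9% in mouse 1 and 18.5% in mouse 2. The family stood at 2155 CPM in cluster 26 and at 1039 and 892 CPM in cluster 17. Cluster 26 thus adds to the Nfix of mouse 1 alone. Fibroblast markers in Schwann-like cells were at 50.8% of the near-empty level in mouse 1 and 11.5% in mouse 2. The part of free RNA in the higher Nfix of mouse 1 was not tested.

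The keratinocyte or basal epithelial-like cluster, the only epithelial group (45 and 40 cells), had 356 CPM of Nfix in mouse 1 and 80.8 CPM in mouse 2 (-1.47 ± 0.46, adjusted p = 0.0285, edgeR). The mice differed in the same direction for Nfia, at 252 and 68.5 CPM (-1.40 ± 0.54, adjusted p = 0.0816), and for Nfic, at 178 and 22.0 CPM. Nfib was closer between the mice, at 288 and 220 CPM. The Nfix difference was -0.76 in mouse 1 alone and -2.41 in mouse 2 alone. Of the tested genes, 15.2% passed in this class. The fibroblast markers, all 5 with UMIs, stood at 59.0% of the near-empty level in mouse 1 and 29.5% in mouse 2. Nfia was called lower here in 12 of the 14 alternatives that gave it a test.

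These 5 Nfix calls outside the immune classes depend on the fit. Without the mouse as a block all 5 missed the threshold, at adjusted p from 0.0600 to 0.104, while the differences stayed between -1.53 and -1.38 (edgeR). With doublets kept, 4 of the 5 missed it, at adjusted p from 0.0573 to 0.0824.

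The balance of Nfix and Nfib UMIs within a group does not depend on how groups are scaled to each other. The log2 ratio of Nfix to Nfib was 0.46 in mouse 1 and 0.63 in mouse 2 in fibroblast-like cells and 0.83 and 0.92 in chondrocyte-like cells. In lymphatic endothelial-like cells it was -0.62 and -0.89, in blood endothelial-like cells -0.28 and -1.54, and in Schwann-like cells -0.25 and -0.67. Pericyte or smooth muscle-like cells lay between, at 0.21 and -0.16. Keratinocyte or basal epithelial-like cells were at 0.31 and -1.43. Both mice thus had relatively less Nfix per Nfib in endothelial and Schwann-like cells than in fibroblast-like or chondrocyte-like cells. The same held for pericyte or smooth muscle-like and keratinocyte or basal epithelial-like cells. Macrophage-like cells, where Nfix was also called lower, went the other way, at 1.57 and 2.54. T or NK-like cells were at -0.06 and 4.39 and neutrophil-like cells at -0.24 and 4.64, with 0 Nfib UMIs in mouse 2 in both. The share of other gene pairs with such a split was not counted. A permutation test of this ratio over 2 mice a group cannot pass the threshold of 0.05, so none is given.

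**Figure D3:**
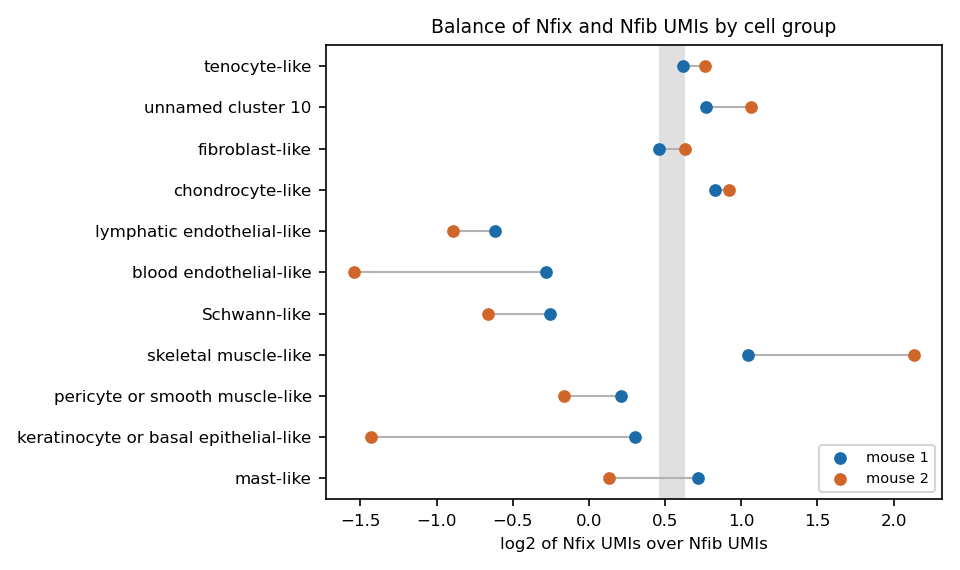
Log2 of the ratio of Nfix UMIs to Nfib UMIs (x axis) in 11 cell groups (y axis), 1 point per mouse; the grey band is the range of the fibroblast-like cells of both mice. The points of lymphatic endothelial-like, blood endothelial-like and Schwann-like cells lie left of the band in both mice. So do those of pericyte or smooth muscle-like and keratinocyte or basal epithelial-like cells. Macrophage-like, neutrophil-like and T or NK-like cells are left out of the figure.

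In skeletal muscle-like cells, where Nfix is known to take part in the change of muscle genes during development, Nfix stood at 590 CPM in mouse 1 and 412 CPM in mouse 2 and did not pass (-0.19 ± 0.45, 95% interval -1.11 to 0.73). Nfic stood at 335 and 256 CPM, the second-highest group for that gene (0.74 ± 0.56, adjusted p = 0.431, edgeR). Nfia was at 369 CPM in mouse 1, from 110 UMIs, and at 24.7 CPM in mouse 2, from 3 UMIs, and Nfib at 285 and 90.7 CPM. None of the 4 members passed, where 14.5% of tested genes did. The class has 98 and 21 cells, and the fibroblast markers were at 81.6% of the near-empty level in mouse 1 and at 11.7% in mouse 2. Of the chondrocyte markers, Col9a1, Hapln1 and Matn3 were at 0 in mouse 2. Their part in the gap of Nfia between the mice was not tested. Satellite-like cells, the stem cells of muscle (34 and 16 cells, too few for the test), had 506 and 280 CPM of Nfia, 286 and 238 CPM of Nfib, 139 and 140 CPM of Nfic and 249 and 252 CPM of Nfix.

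T or NK-like, neutrophil-like and macrophage-like cells ranked among the lowest 4 of 14 groups for each gene. In T or NK-like cells all 4 members were lower than in fibroblast-like cells, where 26.5% of tested genes passed in either direction. Nfix stood at 54.5 and 49.5 CPM (-3.68 ± 0.52, adjusted p = 5.01e-06, edgeR), or 12.8 times lower. Nfia stood at 47.7 and 44.6 CPM (-3.36 ± 0.61, adjusted p = 0.000136) and Nfic at 49.9 and 59.4 CPM (-1.95 ± 0.62, adjusted p = 0.0189). Nfib had 25 UMIs in mouse 1 (56.8 CPM) and 0 UMIs in mouse 2, where 3 UMIs would be 14.9 CPM. Fibroblast markers stood at 13.0% and 4.90% of the near-empty level in these cells, with Lum at 0 in mouse 2, and the 4 members at between 0 and 38.1% of theirs.

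In neutrophil-like cells all 4 members were lower as well, where 33.3% of tested genes passed. Nfix stood at 30.2 and 65.6 CPM (-3.19 ± 0.52, adjusted p = 2.31e-05, edgeR) and Nfia at 45.3 and 43.8 CPM (-2.61 ± 0.60, adjusted p = 0.00113). Nfic had 1 UMI in mouse 1 and 10 in mouse 2, and Nfib 19 and 0. The class rests on 155 and 21 cells. With doublets kept the differences shrank to -1.57 for Nfia, -1.89 for Nfib and -1.32 for Nfic, from -2.61, -3.42 and -2.78, and missed the threshold, at adjusted p from 0.0527 to 0.0716 (edgeR). With only the 2 classes in the fit, where 8.19% of tested genes passed, the calls of Nfia (-3.14, adjusted p = 0.102) and Nfix (-3.68, adjusted p = 0.0568, edgeR) were lost.

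Macrophage-like cells were lower in Nfib, Nfia and Nfix, while Nfic did not pass. Nfib stood at 31.6 CPM in mouse 1 and 17.0 CPM in mouse 2 (-3.89 ± 0.70, adjusted p = 8.43e-05, edgeR), or 14.8 times lower, and Nfia at 79.0 and 33.0 CPM (-2.77 ± 0.56, adjusted p = 0.000317). Nfix stood at 94.8 and 101 CPM (-2.36 ± 0.47, adjusted p = 0.000252). Nfic stood at 56.9 and 97.1 CPM, below both fibroblast-like values, and did not pass (-1.06 ± 0.55, 95% interval -2.20 to 0.07, adjusted p = 0.159). Of the tested genes, 29.1% passed there. Fibroblast markers stood at 8.96% and 7.75% of the near-empty level, Nfib at 10.8% and 6.42% and Nfic at 30.6% and 62.3%. The part of free RNA in these levels was not tested. Nfic was called lower in macrophage-like cells with 2000 UMIs per cell (-1.22, adjusted p = 0.0369) and in the fit of 2 classes (-1.29, adjusted p = 0.000107, edgeR). In those fits 37.2% and 35.6% of tested genes passed.

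Mast-like cells, named from Cpa3, Kit, Mcpt4, Cma1 and Tpsb2, had higher levels of Nfia, Nfib and Nfix in both mice than the other immune classes compared. Nfia stood at 226 and 183 CPM and did not pass (-1.30 ± 0.56, adjusted p = 0.122, edgeR). Nfix stood at 198 and 125 CPM (-2.12 ± 0.49, adjusted p = 0.00291), Nfib at 120 and 114 CPM (-2.07 ± 0.69, adjusted p = 0.0399) and Nfic at 59.9 and 45.6 CPM (-2.01 ± 0.67, adjusted p = 0.0405). The share of tested genes that passed was 15.4%. Both the Nfib and the Nfic call ended without the mouse as a block (adjusted p = 0.0933 and 0.0597), with doublets kept (0.111 and 0.0876) and with 500 UMIs per cell (0.0974 and 0.0570, edgeR). Fibroblast markers were at 72.7% of the near-empty level in mouse 1 and 15.9% in mouse 2. B-like cells (17 and 41 cells, too few for the test) had at most 15 UMIs of any member in a mouse, which was Nfix in mouse 2.

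Counting the members in single cells gave a similar order of groups. Each cell was thinned to 1000 UMIs so that depth did not set the count. No member had a UMI in 15.7% and 16.4% of tenocyte-like cells, in 21.4% and 24.9% of fibroblast-like cells and in 23.2% and 23.3% of chondrocyte-like cells. The share was 34.2% and 33.2% in lymphatic endothelial-like cells, 81.6% and 78.7% in T or NK-like cells and 78.0% and 79.7% in macrophage-like cells. All 4 members had a UMI in 1.86% and 2.95% of tenocyte-like cells and in 1.15% and 1.16% of fibroblast-like cells. At this depth a gene can be missed in a cell that holds it, so these shares count detections and not expressing cells.

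**Figure D4:**
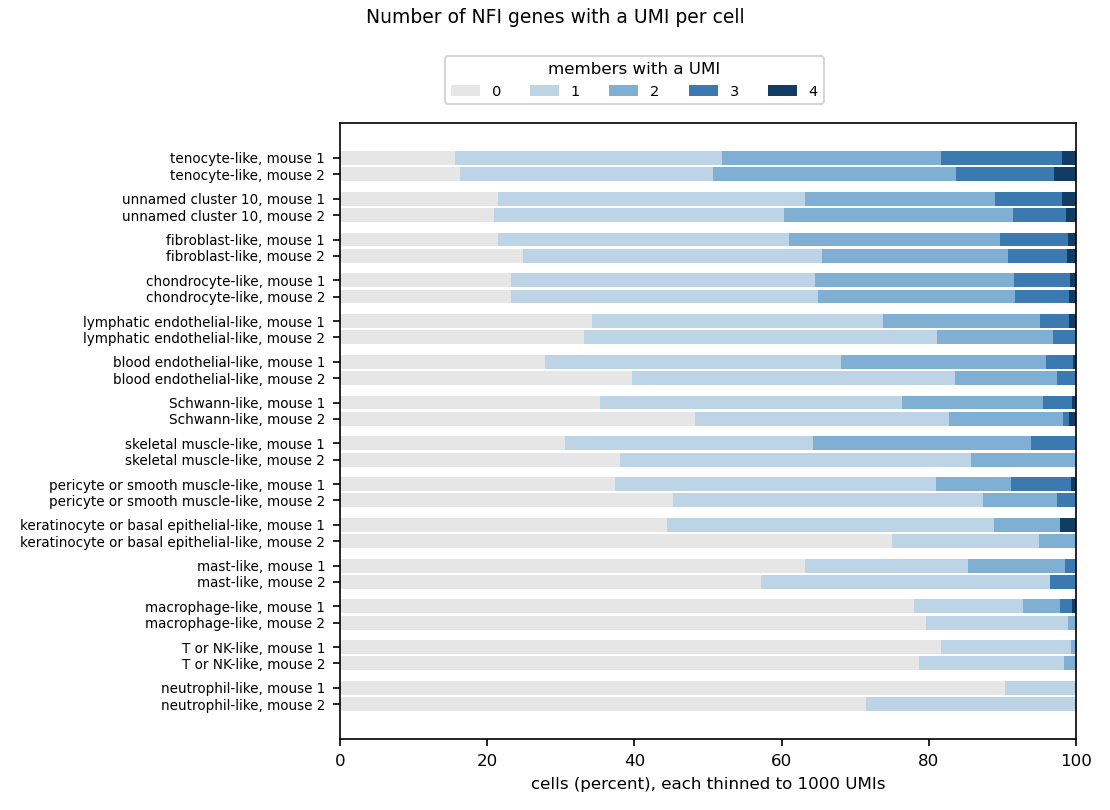
Percent of cells (x axis, each cell thinned to 1000 UMIs) with a UMI of 0, 1, 2, 3 or 4 members of the family, for 14 cell groups and both mice (y axis). The pale bar for no member is shortest in tenocyte-like cells, and it covers at least 71.4% of the macrophage-like, T or NK-like and neutrophil-like cells of both mice and of the keratinocyte or basal epithelial-like cells of mouse 2.

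All 4 members differed across the 23 clusters that had 20 or more cells in each mouse (edgeR F test, adjusted p from 1.72e-14 for Nfix to 1.49e-08 for Nfic), as did 86.1% of the 9665 genes tested. Within an abundant class the picture was another. Among the 5 fibroblast-like clusters none of the 4 members passed (adjusted p from 0.744 to 0.949), where 25% of genes did, and among the 6 chondrocyte-like clusters none passed (adjusted p from 0.817 to 0.994), where 29.6% did. Several values lay further apart than the mice all the same. They are the extremes picked from the clusters of a class. The share of all genes with such a split was not counted, so they are a description only. Nfia was lowest among the chondrocyte-like clusters in cluster 7, at 269 CPM in mouse 1 and 227 CPM in mouse 2. That cluster is led by Col10a1, the collagen of hypertrophic cartilage, and has the deepest cells of the class. Nfia was highest in cluster 12, led by Slpi and Ucma, at 490 and 520 CPM. Nfix ran from 499 and 501 CPM in cluster 7 to 751 and 742 CPM in cluster 12. Among fibroblast-like clusters Nfib was highest in cluster 9, at 628 and 544 CPM, which is led by Clec3b, Cxcl13 and Dpep1, and Nfic lowest in cluster 0, at 133 and 144 CPM. In this fit the spread is estimated over all 23 clusters, and a miss does not show that clusters of a class are alike.

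Over the same clusters the members most alike in their levels were Nfia and Nfib. Likeness was measured as Pearson's r of log2(CPM + 10) on the mean of the mice over 8758 genes of at least 50 CPM in 1 cluster. Clusters share libraries and the same few immune groups set most of the range, so r is given as a description. Nfia and Nfib had r = 0.960, and each was the gene most like the other among 8757. Nfib was followed for Nfia by Nedd4, a ubiquitin ligase (r = 0.946), and Grb10, an adaptor of the insulin receptor (0.941). For Nfib the next were Nedd4 (0.933) and Fkbp9, a prolyl isomerase of the endoplasmic reticulum (0.930). In single mice Nfia and Nfib had r = 0.951 and 0.828. The first rank did not hold in mouse 2 alone, where Fkbp9 was more like Nfia (0.936) and Rbfox2 more like Nfib (0.930).

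Nfic and Nfix had r = 0.899, and Nfix was the fifth gene in order for Nfic, while Nfic was number 25 for Nfix. The genes most like Nfix were Ghr, the growth hormone receptor (0.960), Bgn, a proteoglycan of the connective tissue matrix (0.949), and Ppic, a cyclophilin (0.944). Those most like Nfic were Glis2, a zinc finger factor (0.927), Tfg, a factor of export from the endoplasmic reticulum (0.915), and Ltbp3, a binding protein of latent TGF-beta (0.910). The lowest likeness within the family was that of Nfib and Nfic, at r = 0.814.

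**Figure D5:**
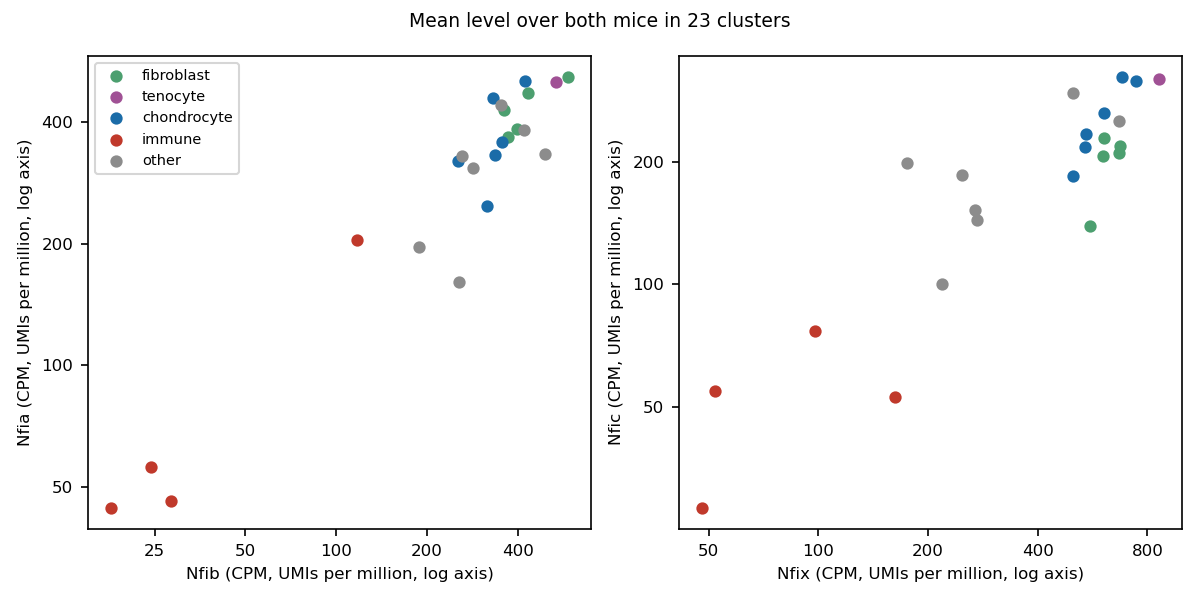
Mean level over both mice (log axes, CPM) in 23 clusters, coloured by class: Nfia against Nfib on the left and Nfic against Nfix on the right. Most immune clusters lie at the low end of both panels, and fibroblast, chondrocyte and tenocyte clusters at the high end.

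Genes tied to NFI factors in the literature gave 7 tested of 15 listed. Ckm of this list is also a marker that named the skeletal muscle-like class, so its value there is no result. Sox9, the master regulator of cartilage, was higher in chondrocyte-like cells (4.04 ± 0.73 on the log2 scale, adjusted p = 0.000105, edgeR). Of the list, 1 gene was higher and 2 were lower in chondrocyte-like cells, and 0 were higher and 3 lower in both T or NK-like and neutrophil-like cells. Of all tested genes, 23.1%, 26.5% and 33.3% passed in those classes, in that order. Apcdd1, an inhibitor of Wnt signalling that Nfia and Sox9 are known to induce in glia, was lower in Schwann-like cells (-2.16 ± 0.67, adjusted p = 0.0299, edgeR) and in macrophage-like cells (-3.19 ± 0.69, adjusted p = 0.000804). Zcchc24 was lower in T or NK-like cells (-2.91 ± 0.60, adjusted p = 0.000481) and in chondrocyte-like cells (-1.40 ± 0.42, adjusted p = 0.0154). Eno3, the muscle enolase, was higher in skeletal muscle-like cells (8.88 ± 0.62). The list's median was -1.59 in T or NK-like cells, against 0.01 over all genes tested, and 0.02 in tenocyte-like cells, against -0.000262.

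Other transcription factors with broad expression moved in both directions. Of 15 tested, 4 were higher and 5 lower in macrophage-like cells, 4 and 3 in lymphatic endothelial-like cells and 1 and 8 in T or NK-like cells. The shares over all tested genes, in the same order, were 29.1%, 16.5% and 26.5%. The median of this list was -2.70 in T or NK-like cells and -1.24 in macrophage-like cells. Both lie below the medians of the genes tied to NFI factors there, -1.59 and -0.85. In neutrophil-like and mast-like cells it was -0.61 and -0.86, above the -4.44 and -1.40 of those genes. Mef2c, a factor of muscle and endothelium, was higher by 4.04 ± 0.57 in blood endothelial-like cells and by 3.69 ± 0.56 in the pericyte or smooth muscle-like class. Klf9, a target of glucocorticoids, was lower in macrophage-like cells (-2.76 ± 0.47) and in T or NK-like cells (-3.33 ± 0.51). Zeb2, a repressor of epithelial genes, was higher in macrophage-like cells (2.47 ± 0.66) and lower in lymphatic endothelial-like cells (-4.77 ± 0.78). Each of these had an adjusted p under 0.05 in edgeR.

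The counts of the members carry some doubt from their gene models. In a GRCm38 annotation the genes span 346 kb (Nfia, chromosome 4), 416 kb (Nfib, chromosome 4), 59.5 kb (Nfic, chromosome 10) and 100 kb (Nfix, chromosome 8), and exons are 3.15%, 3.60%, 11.2% and 7.32% of that length. The sources used here do not say whether reads in introns were counted. Each of the 4 overlaps at least 1 gene on the other strand, among them Lyl1 at Nfix. On the same strand, Nfib overlaps Gm11267 and Nfic overlaps Mir1191b. Reads of overlapping genes may be hard to assign to 1 of them, more so where the strand is shared. Lyl1 was number 8 in likeness to Nfix over the clusters (r = 0.931, and 0.988 and 0.803 in single mice). The part of shared reads in this was not tested. As signs of RNA quality, the mitochondrial share was 3.78% and 4.05% in chondrocyte-like, 4.70% and 5.34% in fibroblast-like, 6.47% and 8.20% in the pericyte or smooth muscle-like class and 1.58% and 2.08% in neutrophil-like cells.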

How the data were processed

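The deposited tables hold whole-number counts per gene and barcode, without normalization, taken here as UMI counts. STAR, Cell Ranger 7.0.0 and GRCm39 are named per the submitters' processing notes, with no role, and the sources used here give neither the annotation release nor the use of introns. Depth was 95844802 and 86049057 UMIs over all barcodes.

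Barcodes with at least 1000 UMIs (14369 and 10017), 300 genes and at most 15% mitochondrial counts were kept (14136 and 9680). Scrublet in scanpy 1.11.5 called 0 doublets in both mice, so the highest scores were removed at 0.8% per 1000 cells (1598 and 749). Cells were clustered by Leiden (leidenalg 0.10.2, resolution 1) on 15 neighbours in 30 components of 2000 variable genes, drawn from 28291 genes. The other 28662 genes, with the 4 NFI genes and all listed genes, were held out. This reduces the dependence of the tests on the grouping but cannot end it, since both come from 1 set of cells. A cluster was named from 33 lists of 5 markers if a list led by 0.25 at 1.5 or more (log2, 10 CPM added), with 3 markers in 10% of cells and no contradiction in its 10 leading genes. Of the listed genes 6 are also markers.

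Sums of counts by class, or by cluster, within each mouse (groups with 20 or more cells in each) were tested in edgeR 4.0.16 (TMM, robust quasi-likelihood, mouse as a block because classes of a mouse come from 1 animal). Adjustment was over the held-out genes that passed filterByExpr, with 0.05 as the threshold (26 sums with 12 residual degrees of freedom, and 46 with 22). On simulated data for the chondrocyte-like comparison, 5542 genes were tested. There 100 of 100 planted 4-fold and 37 of 100 planted 2-fold changes were recovered, with 7 false calls. In the mouse data the SE of the 4 members in that comparison ran from 0.44 (Nfix) to 0.60 (Nfib). Recovery at the spread of the members was not tested. Intervals of 95% use the t distribution with the fit's degrees of freedom. With 2 mice, p-values rest on the spread pooled over groups. Named genes were the 4 members, the 3 genes most like each, and up to 4 called genes of each list and comparison. The 4 members, the lists and the naming rule were chosen with earlier results of these data known. The 44 listed genes fall into 4 lists: genes tied to NFI factors, other transcription factors, nuclear-retained RNA and immediate early genes. Alternatives covered filters, doublets, resolution, clustering genes, DESeq2 1.42.0, scaling, the block and single mice. A floor of 3 UMIs was used, which covers counting error only.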

Additional observations from a re-analysis of the deposited data

Results flagged for a closer look

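Barcodes of at least 100 but fewer than 1000 UMIs, too shallow to be kept as cells and used in no comparison, held all 4 members above the limit that a count of 0 allows. Nfia was at 400 CPM in mouse 1 and 353 CPM in mouse 2, and Nfib at 301 and 262 CPM. Nfic was at 165 and 150 CPM and Nfix at 464 and 453 CPM. For Nfix both values lie between those of near-empty barcodes (426 and 418 CPM) and those of the cells kept (563 and 569 CPM). For Nfic both lie below those of the near-empty barcodes (186 and 156 CPM).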

How the results depend on the processing

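The comparisons rest on 2 mice, and the block by mouse pairs classes of 1 animal. Leaving out a mouse gives values with no test (TMM scaling, 1 CPM added). Of 48 differences, 4 not called changed sign in the mouse left: Nfib in blood endothelial (-0.24 to 0.22), Nfic in lymphatic (-0.43 to 0.00807), Nfic in Schwann (-0.24 to 0.0507) and Nfix in skeletal muscle-like cells (-0.41 to 0.0722). A single-mouse value lay further from the reported one than 1 SD over the mice for Nfib (-8.69 to -2.47) and Nfix (-3.17 to -3.11) in neutrophil, Nfia in skeletal muscle (-3.76 to -0.22), Nfib (-8.69 to -2.95), Nfia (-3.27 to -3.26) and Nfic (-1.923 to -1.917) in T or NK and Nfix (0.444 in both) in tenocyte-like cells. The lowest values of Nfib come from 0 UMIs and depend on the CPM added. The calls of Nfia, Nfib and Nfix in macrophage-like and T or NK-like cells, of Nfic in T or NK-like cells and of Nfix in mast-like cells held in every alternative with a test that gave a value. All 4 members differed over all clusters, and 0 of 4 within the fibroblast-like or chondrocyte-like clusters, in each alternative run. Neutrophil-like cells could not be compared with a limit of 2000 UMIs, with a mitochondrial limit of 25% or without the shared barcodes, nor mast-like cells with 2000 UMIs, since mouse 2 then had fewer than 20 such cells. Leaving out the shared barcodes or cluster 26 was chosen after seeing the data. The causes were not tested. Depth limits the 4 immune classes compared, where a member had 0 to 101 UMIs in a mouse.

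These calls missed the threshold (log2 difference from fibroblast-like cells in parentheses, class names shortened). With 500 UMIs and 200 genes as the limits: Nfix (-1.33) in blood endothelial, Nfib (-1.70) and Nfic (-1.74) in mast and Nfix (-1.40) in pericyte. With all genes but the members and listed genes in the clustering: Nfix (-1.40) in blood endothelial, Nfix (-0.90) in pericyte and Nfix (-1.52) in Schwann. With doublets kept: Nfix (-1.37) in blood endothelial, Nfix (-1.41) in lymphatic, Nfib (-1.95) and Nfic (-1.42) in mast, Nfib (-1.89), Nfia (-1.57), Nfic (-1.32) in neutrophil, Nfix (-1.41) in pericyte and Nfix (-1.40) in Schwann. With library totals as the only scaling: Nfix (-1.22) in blood endothelial, Nfix (-1.32) in lymphatic, Nfic (-1.85) in mast and Nfix (-1.22) in pericyte. With the mitochondrial limit at 25%: Nfix (-1.24) in blood endothelial. With no replicate block: Nfix (-1.39) in blood endothelial, Nfix (-1.38) in keratinocyte, Nfix (-1.41) in lymphatic, Nfib (-2.03) and Nfic (-2.02) in mast, Nfix (-1.39) in pericyte and Nfix (-1.53) in Schwann. With only the 2 classes compared in the fit: Nfia (-3.14) and Nfix (-3.68) in neutrophil.

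These differences passed it, unlike in the report. With 2000 UMIs as the limit: Nfia (-1.47) in keratinocyte, Nfic (-1.22) in macrophage and Nfib (-1.16) in skeletal muscle. With 500 UMIs and 200 genes as the limits: Nfia (-1.94) and Nfic (-1.73) in keratinocyte. With DESeq2: Nfia (-1.46) in keratinocyte. With all genes but the members and listed genes in the clustering: Nfia (-2.07) in keratinocyte. With shared barcodes left out: Nfia (-1.97) in keratinocyte. With doublets kept: Nfia (-2.07) in keratinocyte. With library totals as the only scaling: Nfia (-1.57) in keratinocyte. With the mitochondrial limit at 10%: Nfia (-1.67) in keratinocyte. With the mitochondrial limit at 25%: Nfia (-1.87) and Nfic (-1.33) in keratinocyte. With no filter on low counts: Nfia (-1.71) in keratinocyte and Nfia (-1.58) in mast. With only the 2 classes compared in the fit: Nfic (0.47) in chondrocyte, Nfia (-1.64) and Nfic (-1.43) in keratinocyte, Nfic (-1.29) in macrophage, Nfia (-1.43) in mast, Nfib (-1.03), Nfia (-0.72), Nfic (-0.72) in pericyte, Nfib (-0.73) in Schwann and Nfic (0.60) and Nfix (0.39) in tenocyte. With resolution 0.5: Nfia (-1.63) in keratinocyte and Nfia (-1.33) in mast.

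These differences near 0, called in no setting, changed sign. With 2000 UMIs as the limit: Nfix (0.11) in chondrocyte. With 500 UMIs and 200 genes as the limits: Nfix (0.11) in chondrocyte. With all genes but the members and listed genes in the clustering: Nfib (-0.0129) in blood endothelial and Nfix (0.0183) in chondrocyte. With shared barcodes left out: Nfib (-0.00686) in blood endothelial and Nfix (0.0441) in chondrocyte. With doublets kept: Nfib (-0.0166) in blood endothelial and Nfix (0.0646) in chondrocyte. With library totals as the only scaling: Nfib (0.00581) in lymphatic and Nfic (0.0228) in Schwann. With the mitochondrial limit at 10%: Nfib (-0.12) in blood endothelial. With the mitochondrial limit at 25%: Nfix (0.11) in chondrocyte. With no filter on low counts: Nfib (-0.15) in blood endothelial and Nfix (0.0985) in chondrocyte. With no replicate block: Nfib (-0.000203) in blood endothelial. With only the 2 classes compared in the fit: Nfib (-0.0300) in blood endothelial and Nfix (0.0800) in chondrocyte. With resolution 2: Nfix (0.0451) in chondrocyte.

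Counts of all called genes that moved by over 1.5 times are given against the count in the report. With 2000 UMIs as the limit: 2314 against 1517 (chondrocyte), 1528 against 1000 (keratinocyte), 420 against 219 (tenocyte). With 500 UMIs and 200 genes as the limits: 133 against 219 (tenocyte). With shared barcodes left out: 422 against 219 (tenocyte). With the mitochondrial limit at 25%: 1593 against 1000 (keratinocyte), 331 against 219 (tenocyte). With no filter on low counts: 2558 against 1517 (chondrocyte). With no replicate block: 1444 against 2417 (among fibroblast clusters), 1754 against 2858 (among chondrocyte clusters), 91 against 219 (tenocyte). With only the 2 classes compared in the fit: 1413 against 858 (blood endothelial), 5924 against 1517 (chondrocyte), 1761 against 1085 (lymphatic), 3145 against 1909 (macrophage), 700 against 2183 (neutrophil), 1989 against 779 (pericyte), 1805 against 869 (Schwann), 338 against 951 (skeletal muscle), 1407 against 219 (tenocyte). With resolution 2: 131 against 219 (tenocyte). Library totals moved the split of higher and lower calls: 685 and 239 against 534 and 324 (blood endothelial), 553 and 530 against 662 and 338 (keratinocyte), 832 and 1111 against 1043 and 866 (macrophage), 827 and 1940 against 1170 and 1013 (neutrophil), 611 and 264 against 455 and 324 (pericyte), 536 and 512 against 583 and 368 (skeletal muscle). DESeq2 moved the split of higher and lower calls: 923 and 1184 against 1043 and 866 (macrophage). The median log2 difference of all tested genes in neutrophil-like cells went from -0.38 to -1.05 with library totals; the members' calls there held.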

Other observations

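Mast-like cells stood apart in immediate early genes, the genes of fast response to stimulation. Of 8 listed and tested, 6 were higher there than in fibroblast-like cells and 0 lower, beside 15.4% of all genes tested. Jun was higher by 3.75 ± 0.65 on the log2 scale (adjusted p = 0.000115, edgeR), Nr4a1 by 2.85 ± 0.68 and Fos by 2.68 ± 0.65. The summed level of the 8 genes was 31447 CPM in mouse 1 and 35510 CPM in mouse 2, against 6128 and 4398 CPM in fibroblast-like cells. In T or NK-like cells, where 26.5% of all tested genes passed, 0 were higher and 4 lower, among them Egr1 (-3.83 ± 0.76, adjusted p = 0.000331). In lymphatic endothelial-like cells the sum was 9200 CPM in mouse 1 and 2291 CPM in mouse 2, and 0 of 8 passed.

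Of 5 nuclear-retained RNAs, 4 were tested. Meg3, an imprinted long RNA, was lower than in fibroblast-like cells in 9 classes, with a difference of -5.56 ± 0.73 in T or NK-like cells (adjusted p = 1.47e-06, edgeR) and of -3.49 ± 0.61 in lymphatic endothelial-like cells. Of all tested genes, between 4.94% (blood endothelial-like) and 15.4% (neutrophil-like) were called lower in those 9 classes. Kcnq1ot1 was higher in chondrocyte-like cells (1.74 ± 0.39, adjusted p = 0.00103, edgeR), where 23.1% of tested genes passed. It was lower in neutrophil-like cells (-2.88 ± 0.91, adjusted p = 0.0150, edgeR), where 33.3% passed.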
